A study of Drosophila melanogaster with 22 samples.

Results

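Regions of open chromatin that were found in the pharate haltere and in neither the pharate leg nor the pharate wing are described here. They were chosen by pooling the FAIRE peaks of pharate leg, haltere and wing on 6 chromosome arms (X, 2L, 2R, 3L, 3R and 4), joining peaks that shared at least 1 bp into regions, and keeping regions that held a haltere peak and no leg or wing peak. The rule gave 11568 of 36559 pharate regions, or 31.6% (exact 95% interval 31.2 to 32.1). The whole series of 11 FAIRE lists merged into 50319 regions. The values that selected the members are therefore descriptions, and only the 8 FAIRE lists from other tissues and stages were independent of the rule.

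In FAIRE-seq, fixed chromatin is sheared and extracted with phenol, and DNA free of crosslinked protein is sequenced, so that peaks mark open chromatin such as active enhancers and promoters. The haltere is the club-shaped balancing organ of flies, a modified hindwing that grows from a disc of the third thoracic segment. The Hox protein Ubx specifies it in place of a wing, and its base carries fields of campaniform sensilla, mechanosensory organs that sense strain in the cuticle as the haltere beats.

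The pharate lists came from T3 legs (the leg pair of the same segment as the haltere), wings and halteres dissected at pharate stage P14, when the adult is formed but still inside the pupal case. The other lists came from larvae of the third instar (imaginal discs of the eye-antenna, wing, haltere and T3 leg, and the central nervous system or CNS) and from whole embryos of 3 ages (2 to 4, 6 to 8 and 16 to 18 h). Per the labels, larvae and pharate adults carried y;cn,bw,sp and embryos were OregonR, so an embryo differs from an appendage in strain as well as in stage. Each tissue had 1 deposited peak list, although the labels name 2 replicates for each pharate appendage, so no value carries a spread between replicates and no test between tissues was made. Whole appendages hold several cell types, and a region open in few cells cannot be told apart from one that is weakly open in many.

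The RNA tables carried the marks of a haltere in the sample of that name. They hold 1 FPKM value per gene and tissue. FPKM is the number of fragments per length of transcript and per depth of the library. Ubx had 410 FPKM in the pharate haltere and 59.0 in the T3 leg, and was listed at 0 in the wing, a log2 ratio of 2.78 for haltere over leg on the log2(FPKM + 1) scale. The leg gene dac had 101 FPKM in the leg against 3.07 in the haltere and 3.11 in the wing, and all 5 leg pattern genes were at least 2-fold lower in the haltere than in the leg. The selector of the wing field vg had 55.0 FPKM in the haltere, between 2.59 in the leg and 127 in the wing. All 6 wing field genes were at least 2-fold lower in the haltere than in the wing, with summed levels of 348 and 1769 FPKM. Against the leg, 3 of the 6 were at least 2-fold higher in the haltere. There nub (41.4 FPKM in the haltere, 68.4 in the leg) and salr (7.08 and 7.72) were lower in the haltere.

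Of 7 mechanosensory genes matched, 6 were at least 2-fold higher and 1 lower in the haltere than in the wing. Against the leg 1 was at least 2-fold higher and 2, iav and pain, lower. The mechanotransduction channel gene nompC was highest in the haltere, at 88.6 FPKM against 43.4 (leg) and 21.1 (wing). Of 5 neuronal markers matched, 1 was at least 2-fold higher and 2 lower in the haltere than in the wing. Their sum was 275 FPKM in the haltere against 256 (leg) and 166 (wing), most of it Syt1, which had 222 against 159 and 86.6. The pan-neuronal gene elav had 13.3 FPKM in the haltere, below 43.1 (leg) and 31.9 (wing), and brp and para were also lowest in the haltere. Glial markers summed to 3020 FPKM in the haltere against 5804 and 2680. Muscle markers summed to 18919 FPKM in the haltere, 273029 (leg) and 73046 (wing), and 2 of the 8, Mhc and up, were listed at 0 in all 3. The muscle gene wupA was listed at 0 in the leg alone, against 2242 FPKM (haltere) and 2637 (wing). The haemocyte gene Pxn was also at 0 in the leg alone, against 264 and 76.2. Whether such a 0, or that of Ubx in the wing, means absent RNA was not tested. In the order leg, haltere and wing, fat body markers summed to 3319, 2978 and 858 FPKM, haemocyte markers to 840, 954 and 709, tracheal markers to 1755, 1436 and 1006 and chemosensory markers to 2763, 1796 and 956. The summed mechanosensory levels were 792, 606 and 791 FPKM, in which the channel gene pain had the largest share. The appendages thus differed in the RNA of other cell types, most of all muscle, and the part of this in the FAIRE lists was not tested.

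Each of the 11568 regions was a single haltere peak, and together they made 38.1% of the 30374 pharate haltere peaks. The leg had 2330 regions of its own among 21193 peaks, and the wing 2389 among 21525 peaks (11.1%). The haltere list was the longest of the 3. When each list was reduced to its 21193 best-scoring peaks, 5482 regions were of the haltere alone (18.0% of all regions), against 2972 for the leg and 3325 for the wing. The number of reads behind each list was not known.

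The regions were narrow and scored low in their own list. They covered 4507 kb in all. Their median width was 336 bp, with quartiles of 282 and 440 bp and a range from 250 to 2004 bp, and 110 were wider than 1 kb. The authors' peak score, whose scale is not given in the sources used here, had a median of 9.95 over the members and 15.7 over the whole haltere list. Haltere peaks shared with the leg or the wing had a median score of 26.7. Regions of the leg alone and of the wing alone were narrower than members, with median widths of 309 and 302 bp. Their median scores also lay below those of their own lists, so neither trait was particular to haltere-only regions. The members' scores had quartiles of 6.92 and 14.5 and ran from 2.14 to 115.44. None of the 1000 best-scoring haltere peaks was a member, and 22 of the best 5000 and 684 of the best 10000 were.

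When the haltere list was divided by score into 5 classes of nearly equal size, members made 69.8% of the lowest class and 57.4%, 42.3%, 19.7% and 1.23% of the next classes in rising order. The lowest class, with scores from 2.14 to 8.34, held 4243 members, and the highest, from 46.27 to 868.58, held 75. Most members therefore came from the lower-scoring part of the haltere list. At the edge of the rule, 5 members touched a leg or wing peak without sharing a base. The 167 with a gap of 1 to 50 bp had a median score of 9.13, and the 137 haltere peaks left out for sharing 1 to 50 bp with a leg or wing peak had one of 8.28. Haltere disc peaks were found in 33.5% of the former and 32.8% of the latter, so peaks on either side of the edge had close values.

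The 8 lists that the rule did not use were read for the same DNA. More members had a peak in the haltere disc than in any other of these lists. Of the 11568 members, 3152 had a haltere disc peak, or 27.2% (26.4 to 28.1), where 37.9% of all pharate regions had one. A leg disc peak was found in 2724 members (23.5%), against 38.8% of all pharate regions, and a wing disc peak in 1685 (14.6%), against 30.7%. The wing disc list was shorter, with 14285 peaks, than those of the haltere disc (18031) and the leg disc (18123). In all 3 discs the members' share was below that of the pharate regions as a whole.

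The lists of other tissues gave lower shares, and these lists were all shorter than those of the 3 appendage discs. The eye-antennal disc had a peak in 386 members (3.34%, against 17.3% of all pharate regions) and the larval CNS in 535 (4.62%, against 17.3%). Among embryos, 9.05% of members had a peak at 2 to 4 h (24.0% of all pharate regions), 6.26% at 6 to 8 h (19.6%) and 8.29% at 16 to 18 h (21.0%). When all 8 lists were cut to 9975 peaks, the length of the shortest, haltere disc peaks were found in 12.3% of members. The leg disc had 8.49%, the wing disc 8.03%, eye-antennal 3.34%, CNS 4.62% and embryos of 2 to 4 h 5.77%. The appendage discs thus stood closer to the other tissues. The lead of the haltere disc over the leg disc was not smaller, at 3.77 percentage points against 3.70 with full lists. Over all pharate regions the cut lists gave 23.1% (haltere disc), 23.1% (leg disc) and 22.4% (wing disc). No peak in any of the 8 full lists was found for 6731 members, or 58.2% (57.3 to 59.1), against 43.7% of all pharate regions. Regions of the leg alone and of the wing alone lacked such peaks more often than members, in 69.7% and 61.7%. At the other end 24 members, 0.207%, had a peak in all 8 lists, against 5.77% of all pharate regions. In regions of the leg alone and of the wing alone this share was 0.386% and 0.335%.

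Regions of the leg alone and the wing alone gave other values. Of the leg-only regions 9.23% had a haltere disc peak, 10.5% a leg disc peak and 8.03% a wing disc peak. Of the wing-only regions 17.7% had a haltere disc peak, 15.7% a leg disc peak and 15.6% a wing disc peak. Of these 3 classes the haltere-only regions had the largest share in the haltere and leg discs, while the wing disc share of 14.6% lay below the 15.6% of wing-only regions, with intervals that overlapped. With equal pharate lists, haltere disc peaks were found in 24.7% of haltere-only, 12.1% of leg-only and 23.7% of wing-only regions, so most of the distance between haltere and wing was no longer seen. Leg disc peaks were then found in 24.0% of haltere-only and 20.5% of wing-only regions. For eye-antennal disc and CNS peaks the haltere-only regions had the lowest share of the 3 classes.

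**Figure D1:**
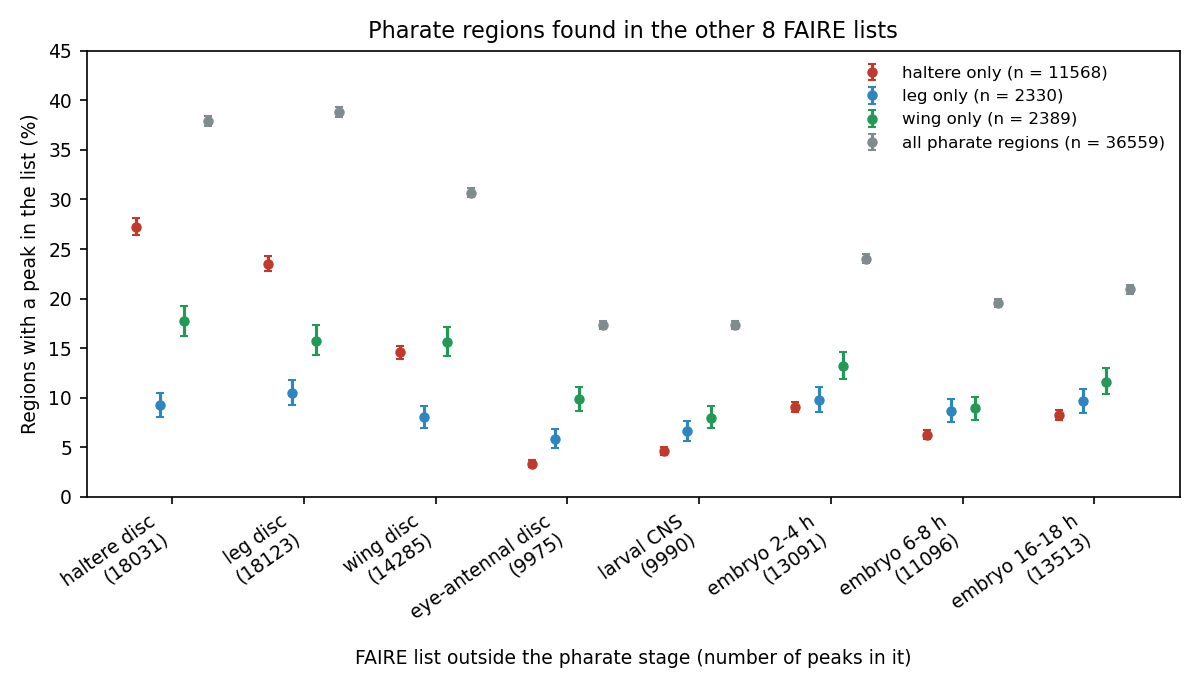
Share of pharate regions (y axis, percent) with a peak in each of the 8 FAIRE lists that the rule did not use (x axis, with the number of peaks in the list). Points are haltere-only, leg-only, wing-only and all pharate regions, and bars are exact 95% intervals that cover counting error only. The haltere-only points stand at 27.2% (haltere disc), 23.5% (leg disc) and 14.6% (wing disc), and below 10% elsewhere.

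Most members had no peak in any of the 3 appendage discs. This held for 7866 of them, or 68.0%, against 55.4% of all pharate regions. It held more often for leg-only regions (86.8%) and wing-only regions (77.4%). Peaks in all 3 discs were found in 1427 members (12.3%) and in the haltere and leg discs without the wing disc in 784 (6.78%). The haltere disc alone had a peak in 796 members, or 6.88% (6.43 to 7.36), against 3.98% of all pharate regions. This was also more than in leg-only regions (1.29%) and wing-only regions (3.31%). A leg disc peak alone was found in 437 members, a wing disc peak alone in 37, and peaks of haltere and wing discs without the leg disc in 145. Among the members with a haltere disc peak, 70.1% also had a leg disc peak.

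Median scores differed between these patterns. The median pharate haltere score was lowest, 8.28, for members with a haltere disc peak alone, 8.80 with haltere and leg disc peaks and 9.21 with haltere and wing disc peaks. It was 10.1 with no disc peak, 10.6 with all 3 discs, 10.9 with the leg disc alone, 11.1 with leg and wing discs and highest, 12.3, for the 37 members with a wing disc peak alone. The haltere disc peaks themselves had a median disc score of 6.62 where they stood alone and 13.4 where all 3 discs had one, and those that met no member had 12.0. Members with a haltere disc peak alone thus had the lower median in both haltere lists.

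Counted from the disc side, 3087 of the 18031 haltere disc peaks met a member, or 17.1%, as did 14.8% of leg disc and 11.6% of wing disc peaks. Of the 2549 haltere disc peaks that overlapped neither a leg nor a wing disc peak, 727 met a member, or 28.5% (26.8 to 30.3). Another 26.6% of these overlapped a pharate leg or wing peak, and 41.5% overlapped none of the pharate lists. The corresponding share that met a member was 14.1% for the 2709 leg disc peaks without a partner and 8.15% for the 454 wing disc peaks. Haltere disc peaks without a partner thus met members more often than haltere disc peaks as a whole did. The pharate haltere list was also the longest, and the part of its length in this share was not tested.

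The difference between haltere disc and leg disc overlap lay in the weakest peaks. In the lowest score class 30.0% of members had a haltere disc peak and 22.8% a leg disc peak. In the next class the shares were 27.4% and 23.6%. In the third class they were 23.7% and 23.5%, in the fourth 24.9% and 26.3%, and in the highest both were 24.0%. From the third class up the intervals of the 2 discs overlapped. With the haltere list alone reduced to its better-scoring 50%, the members' shares were 24.0% in the haltere disc and 24.9% in the leg disc. With each pharate list so reduced they were 36.4% and 40.6%. That set also held haltere peaks whose weaker leg or wing partner had been dropped. Haltere peaks shared with leg or wing had haltere disc shares of 34.4%, 36.7%, 41.1%, 51.2% and 72.2% from the lowest class to the highest. Over peaks of all widths the members' share was lower within each class, and the distance was larger in higher classes. Shared peaks were also wider there, with median widths of 353 bp in the lowest class and 606 bp in the highest. Shares over a limited range of widths are given below.

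CNS shares differed more between score classes than the disc shares of members did. A CNS peak was found in 1.44% of members of the lowest class, 3.30% of the second, 6.40% of the third and 15.8% of the fourth. In the highest class 6 of 75 members, or 8.00%, had one. Shared haltere peaks had CNS shares of 4.74%, 6.10%, 11.3%, 27.1% and 44.2% from the lowest class to the highest, above the members in every class and without the drop in the highest. Overlap with embryos of 16 to 18 h went from 5.68% in the lowest class to 15.3% in the fourth and 21.3% in the highest. Since peaks of higher score were also wider, shares were computed over peaks of 250 to 450 bp. CNS shares over that width were 1.51%, 3.47%, 6.22% and 13.6% in the lower 4 classes, and the order of the classes held. Haltere disc shares of members over that width were 28.1%, 22.9%, 17.9% and 17.7% in the same classes, and 26.5% of 49 members in the highest. Shared peaks of that width had 31.8%, 30.4%, 31.1%, 34.9% and 46.0% from the lowest class to the highest. Their rise was thus smaller than over all widths, and the members' share stayed lower in every class. CNS shares of shared peaks of that width went from 5.61% in the lowest class to 28.4% in the highest.

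**Figure D2:**
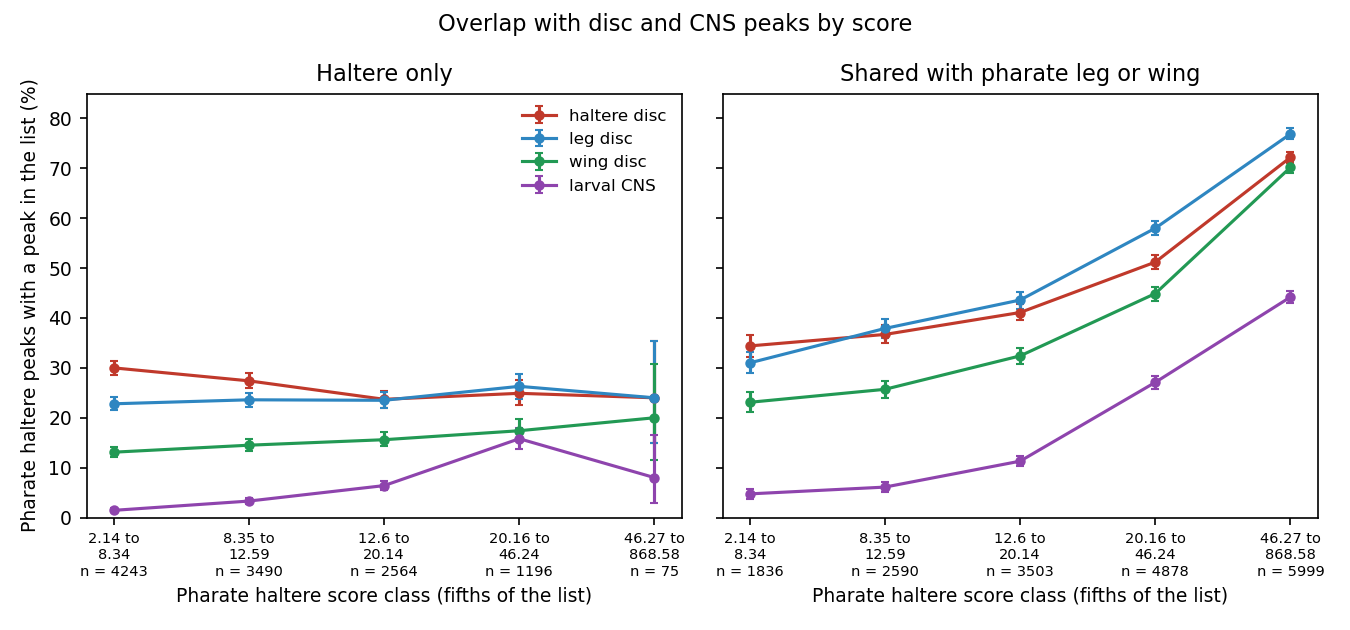
Share of pharate haltere peaks (y axis, percent) with a peak in the haltere, leg and wing discs and the larval CNS, by class of pharate haltere score (x axis, with the score range and n), for haltere-only peaks (left) and peaks shared with the pharate leg or wing (right). Bars are exact 95% intervals that cover counting error only. Haltere disc shares of haltere-only peaks go from 30.0% in the lowest class to 24.0% in the highest, while those of shared peaks go from 34.4% to 72.2%. Widths are not matched here, and over peaks of 250 to 450 bp the shared peaks go from 31.8% to 46.0%.

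Members with a CNS peak lacked a disc peak more often than widely open regions did, but less often than members as a whole. Of the 535 members with a CNS peak, 329 had no peak in the haltere, leg or wing disc, or 61.5% (57.2 to 65.6), against 68.0% of all members. Over all pharate regions with a CNS peak the share was 19.0%. It was 66.9% in leg-only and 60.7% in wing-only regions, 41.6% in regions of leg and haltere, 39.1% in regions of haltere and wing and 6.63% in regions of all 3 appendages. Members thus stood apart from widely open regions here but not from regions of the leg or wing alone. Within the fourth score class 61.4% of members with a CNS peak lacked a disc peak, against 14.2% of shared haltere peaks. The neuronal markers given above did not differ in 1 direction between the appendages, and their part in these shares was not tested.

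The best-scoring members differed in how many other tissues had a peak there. All positions are in genome build dm3, counted from 1. The first was X 2857859 to 2858235, 377 bp wide with a score of 115.44. It had peaks in the haltere, leg and wing discs (scores 29.26, 27.69 and 28.66 in those lists), the eye-antennal disc (34.67) and the embryo at 16 to 18 h (49.36), and the nearest pharate wing peak was 8042 bp away. The second was 3R 19843817 to 19844467, 651 bp wide with a score of 110.22, and none of the 8 other lists had a peak there. A leg peak lay 330 bp from it and a wing peak 359 bp. So the first member had a peak in all 4 discs, and the second was found in the pharate haltere alone.

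The other members among the best 10 divided in the same way. Peaks in all 3 appendage discs were found at 3L 1269001 to 1269427 (score 82.9), X 13145201 to 13145548 (73.22) and 3L 2459626 to 2460541 (69.47). No other list had a peak at 3L 21193624 to 21194081 (70.11) or at 2L 11318621 to 11319311 (66.21). The embryo of 16 to 18 h was the single other tissue at 3L 10809652 to 10810463 (77.87) and 3L 4096527 to 4096988 (75.27). At 3R 298026 to 298847 (73.72) the embryo of 2 to 4 h had a peak with a score of 119.32, the leg disc one of 2.33 and the embryo of 16 to 18 h one of 5.7. Of the 10, none had a larval CNS peak or a peak at 6 to 8 h, where 4.62% and 6.26% of all members had one. The best members of the remaining arms were 2R 2040858 to 2041222 (56.75), with no other list, and 4 440309 to 440653 (32.56), with an eye-antennal disc peak of score 5.58.

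**Figure D3:**
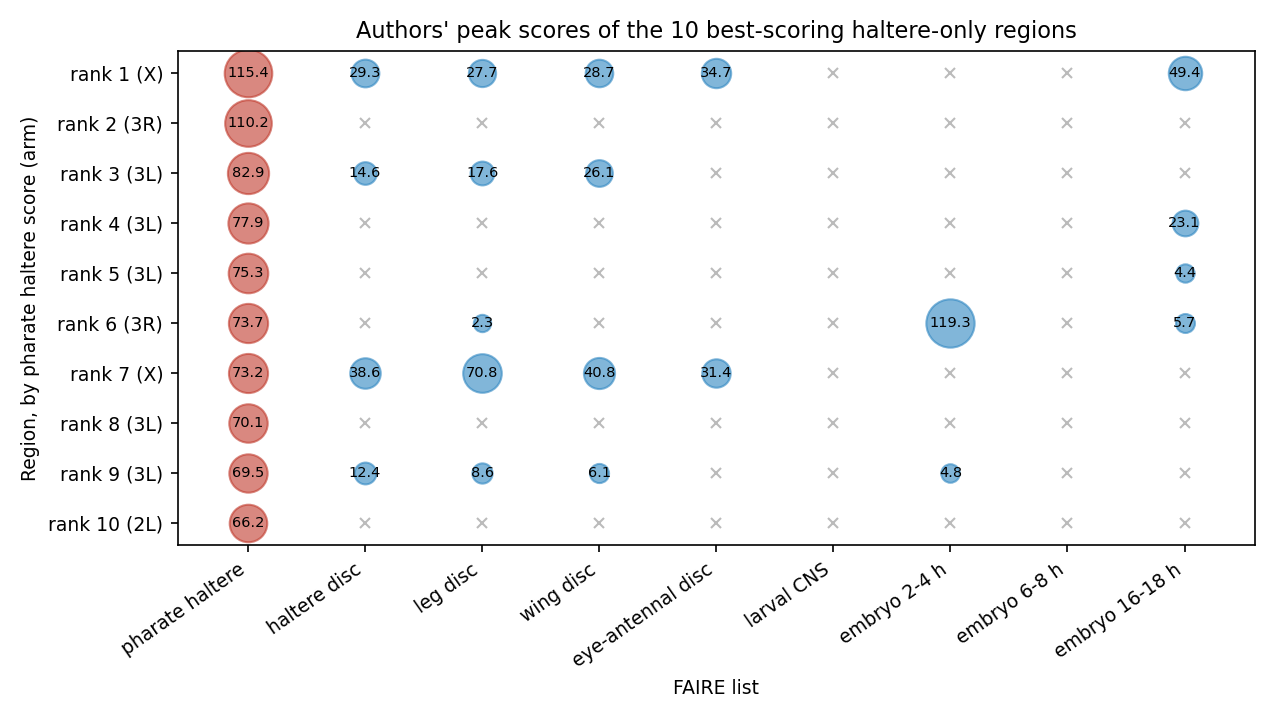
The authors' peak scores of the 10 best-scoring haltere-only regions (y axis, by rank with the chromosome arm) in the pharate haltere list, in red, and in the 8 other lists, in blue (x axis). Circle area grows with the score, a cross marks a list with no peak, and the scales of the lists are not known to match. Ranks 1, 3, 7 and 9 have peaks in all 3 appendage discs, and ranks 2, 8 and 10 have none outside the pharate haltere.

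The 796 members with a haltere disc peak and no leg or wing disc peak lacked leg and wing peaks at both stages by the way they were picked. The best of these was 3R 2490763 to 2491135, with a pharate haltere score of 62.73 and a haltere disc score of 28.76. It lay 204 bp from a wing peak and 218 bp from a leg peak, and no other list had a peak there. The next were 2L 11203541 to 11204448 (pharate score 61.94, disc score 5.52), 3R 1139634 to 1140442 (53.16 and 11.62), 2R 8380345 to 8381038 (45.86 and 4.09) and 3R 20613528 to 20613895 (45.54 and 11.5). Apart from 2L 11203541, where embryos of 16 to 18 h had a peak of score 10.15, these 5 had a peak in the haltere lists alone.

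The opposite case was a region open in all 8 other lists and missing from the pharate leg and wing. The best of these 24 was 3R 27763797 to 27764279, with a pharate haltere score of 46.17. Its scores were 270.69 in the haltere disc, 303.0 in the leg disc, 175.11 in the wing disc and 292.15 in the embryo of 2 to 4 h. Pharate wing and leg peaks lay 407 and 468 bp away. The others by score were 2R 8845382 to 8845765 (29.96), 2R 3585202 to 3585775 (27.24), 3L 6174213 to 6175039 (25.05) and 2R 2458864 to 2459200 (22.89). Of these 5, only 2R 2458864 had its nearest leg and wing peaks more than 10 kb away, at 18059 and 16830 bp.

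Most members lay close to DNA that was open in the leg or the wing. The median gap to the nearest pharate leg or wing peak was 1375 bp, with quartiles of 516 and 3801 bp. Within 500 bp there were 24.3% of members, within 1 kb 41.3% and within 10 kb 89.7%. Leg-only regions had a median gap of 742 bp to a haltere or wing peak, and wing-only regions one of 659 bp to a leg or haltere peak. These classes had the longer haltere list among their neighbours, and the part of its length in their shorter gaps was not tested. Farther than 10 kb lay 1193 members and farther than 50 kb 104, and the largest gap was 440479 bp.

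**Figure D4:**
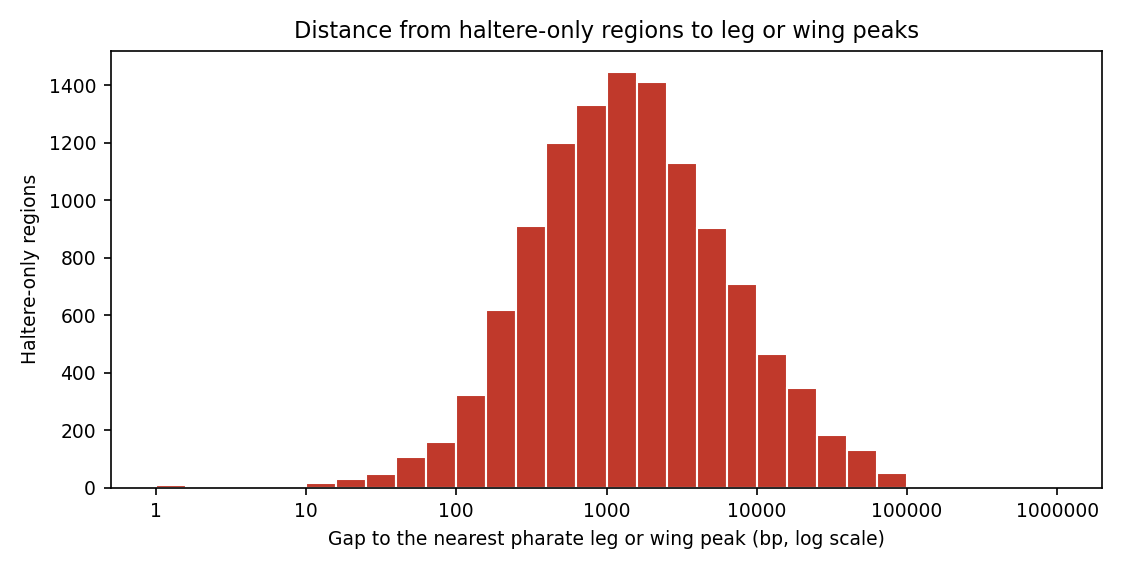
Number of haltere-only regions (y axis) by the gap in bp to the nearest pharate leg or wing peak (x axis, log scale, 5 regions with a gap of 0 drawn at 1). The median is 1375 bp, and 1193 regions lie beyond 10 kb.

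Far members overlapped appendage discs less and the CNS and late embryo more. Of members up to 500 bp from a leg or wing peak, 31.0% had a haltere disc peak, 26.6% a leg disc peak and 16.1% a wing disc peak. Beyond 10 kb the shares were 16.8%, 12.9% and 8.47%. CNS peaks were found in 4.23% of the near members and 7.12% of the far ones, and peaks of embryos of 16 to 18 h in 5.79% and 12.1%. No peak in any other list was found for 56.7% of near and 66.8% of far members. The near and far groups had similar scores, with medians of 10.1 and 9.94, and median widths of 350 and 315 bp.

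Members occurred along all the arms. They made 31.0% of pharate regions on 2L, 30.8% on 2R, 30.6% on 3L, 32.7% on 3R and 33.0% on X, where the background over all arms was 31.6%. Chromosome 4 had 15 members among 66 regions, or 22.7% (13.3 to 34.7). In intervals of 50 kb, 2201 of 2408 held at least 1 member, and the median interval held 5.

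On X the other tissues were shared in other amounts. Of the 2227 members on X, 33.5% (31.5 to 35.5) had a haltere disc peak, against 25.8% (24.9 to 26.7) of the 9326 members on 2L, 2R, 3L and 3R. The remaining pharate regions had 51.4% on X and 40.9% on those arms, so X was higher for members and for other regions. Early embryo peaks went the other way: 3.68% (2.94 to 4.55) of X members had a peak at 2 to 4 h, against 10.3% (9.67 to 10.9) of members on those arms, and at 6 to 8 h the shares were 3.50% and 6.88%. In the remaining pharate regions the shares at 2 to 4 h were 25.5% on X and 32.1% on the autosome arms.

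Members often followed one another with no other pharate region between them. Runs of consecutive members numbered 6328, and 67.0% of members were in runs of 2 or more. This was close to the 65.6% of regions of all 3 appendages, and leg-only regions had 27.3%. Runs of 5 or more held 19.8% of members, against 1.72% of leg-only regions, and regions of all 3 appendages had 13.2% in such runs. There were 11568 members, 2330 leg-only regions and 12545 regions of all 3 appendages, and the part of class size in these shares was not tested. The longest run, at 3L 22530982 to 22664703, held 21 members over 134 kb, of which 12 had no peak in any other list, 3 a haltere disc peak and none a wing disc peak. The next held 20 members at 3R 23851770 to 24072938 and 18 at 3R 16154946 to 16302890. In the latter 17 of 18 members had no peak in any other list. Over all members this share was 58.2%, close to that of the longest run. Runs of 16 lay at 3R 23128948 to 23229894 and 3R 24167269 to 24352387.

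The densest interval was 2L 19000001 to 19050000, where 22 of 34 pharate regions were members and the haltere had 32 peaks against 10 each in leg and wing. It also had the largest summed score of members, 371. A run of 12 members filled 14.4 kb of it, from 19012542 to 19026919, and had a median score of 22.1, above the 9.95 of all members. The strongest of the run were 2L 19014880 to 19016020 (score 35.81), 2L 19019535 to 19020223 (35.15) and 2L 19014046 to 19014775 (33.82). Of the 12, 8 had a larval CNS peak and 10 a peak in embryos of 16 to 18 h, and 11 had at least 1 of them. The haltere disc had a peak in 3, the leg disc in 3, the wing disc in 1, and the eye-antennal disc and embryos of 2 to 4 and 6 to 8 h in none. Neighbouring members at 2L 19014046 and 2L 19014880 lay under the same CNS peak, so these counts are not of separate peaks. CNS peaks also lay over the shared haltere peaks next to either end of the run. This run was chosen for description after its values were seen.

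**Figure D5:**
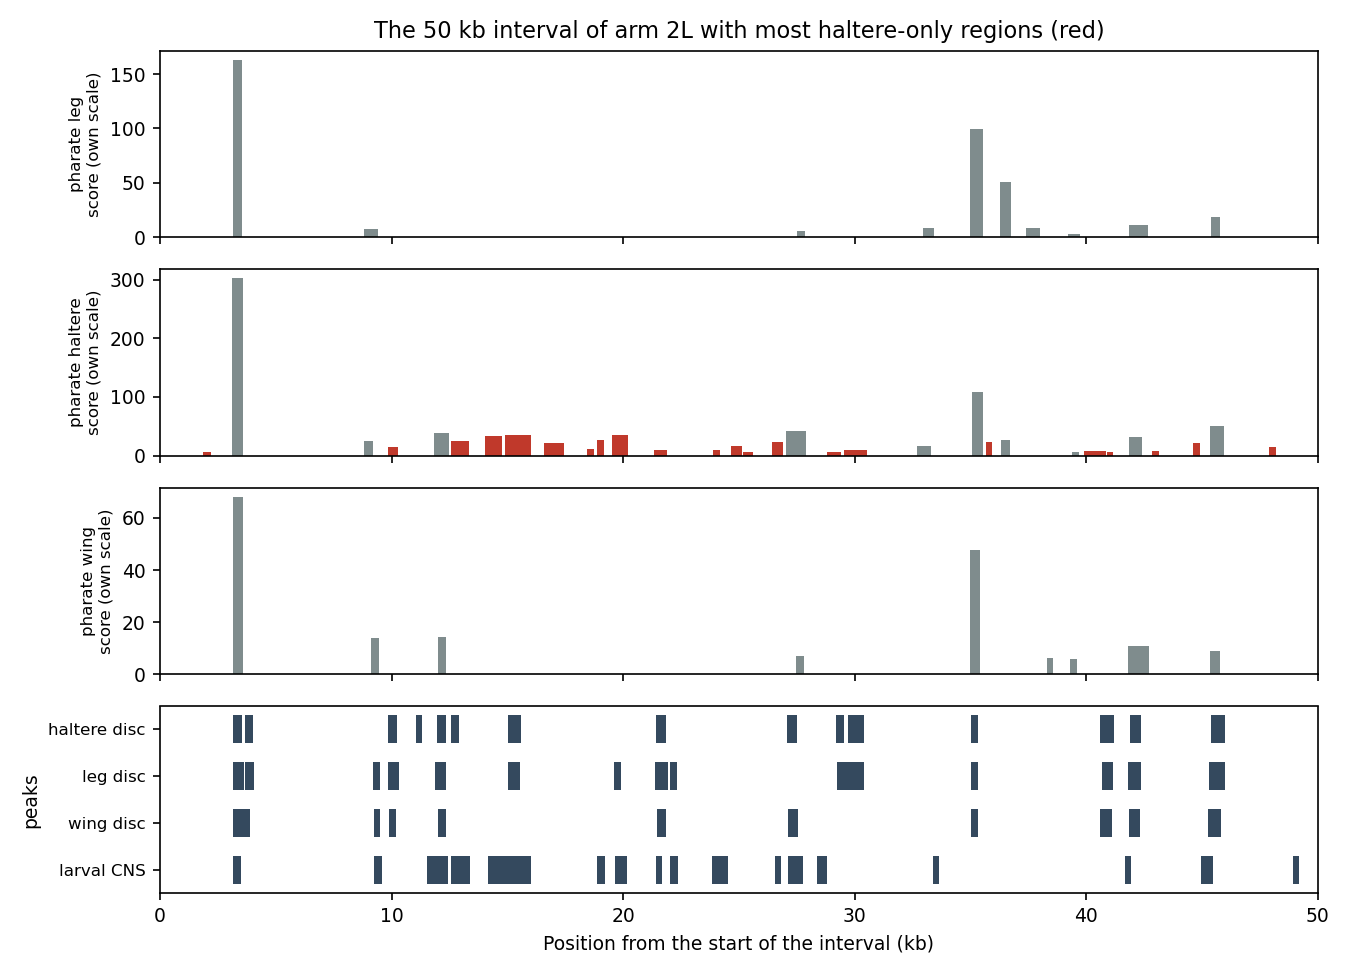
FAIRE peaks along 2L 19000001 to 19050000 (x axis, kb from the start of the interval). The upper 3 panels give the authors' peak scores in pharate leg, haltere and wing, each on its own scale, with haltere-only regions in red and other peaks in grey, and the lowest panel marks peaks of 3 discs and the larval CNS. A stretch of 14.4 kb holds 12 haltere-only regions in a row, with no pharate leg or wing peak between them. Larval CNS peaks lie over 8 of these regions, and some neighbouring regions share a CNS peak.

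Other dense intervals are given beside the shares over all members. These were 27.2% with a haltere disc, 23.5% with a leg disc and 14.6% with a wing disc peak, and 58.2% with no peak in any other list. At X 2600001 to 2650000, 19 of 35 regions were members, and 11 of these had a haltere disc peak, 7 a leg disc peak, 5 a wing disc peak and none a CNS or embryo peak. At 3R 24650001 to 24700000, 19 of 36 were members, and 13 of these had no peak in any other list. At 2R 19250001 to 19300000, 18 of 28 were members, with 6 in the haltere disc, and at 2L 3000001 to 3050000, 17 of 32, with 13 in no other list. Neighbouring members can lie under the same disc peak, so such counts are not of separate disc peaks.

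By summed score the interval at 3L 12400001 to 12450000 came next, with 15 members of 26 regions and a sum of 292. There 8 of 15 members had no peak in any other list, near the 58.2% of all members, and the strongest had a score of 36.48. At 3R 12450001 to 12500000, 15 of 27 regions were members, with a sum of 288. Of these 5 had a haltere disc peak and 7 a leg disc peak, and none a wing disc peak, so peaks of the 2 discs of the third thoracic segment were present without the wing disc. The strongest member there, 3R 12487487 to 12487840 (score 63.03), had peaks in embryos of 2 to 4 and 6 to 8 h (42.67 and 54.01) and in no disc. In the adjoining 3R 12500001 to 12550000, chosen after its values were seen, 13 of 23 regions were members, with haltere disc peaks in 6, leg disc peaks in 7 and a wing disc peak in 1. At 3R 12511341 to 12512193 the pharate haltere score was 33.63, the haltere disc score 66.36 and the leg disc score 112.18.

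At 3R 9600001 to 9650000, 14 of 30 regions were members, with a sum of 282. There 8 members had a peak in embryos of 16 to 18 h, 5 a CNS peak and 2 a haltere disc peak. The strongest were 3R 9615440 to 9615827 (score 54.44) and 3R 9614364 to 9614853 (53.69). The former had peaks in all 3 appendage discs, the eye-antennal disc and embryos of 16 to 18 h. The latter had a peak in embryos of 2 to 4 h alone. A dm3 genome and annotation were not used here, so regions were not assigned to genes and their sequences are not shown.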

How the data were processed

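Of 22 samples, the 11 FAIRE lists and the pharate RNA table were used; the 2 genomic inputs were not used here. The authors deposited peaks with a score per peak, and transcript levels as FPKM, per the file headers and columns. The submitters' processing notes name CASAVA 1.7, Bowtie 0.12.3, MACS2, TopHat 1.1.4, Cuffdiff and the build dm3, without roles. Peak thresholds, controls and the pooling of replicates are not given in the sources used here. Peaks were merged and compared with Python 3.11.15, pandas 2.3.3 and scipy 1.17.1, and the functions were tested on simulated data. Overlap meant at least 1 bp. Shares carry exact (Clopper-Pearson) 95% intervals, which cover counting error only. Scores ranked peaks within a list. FPKM ratios had 1 added to each value, and 54 of 58 marker genes, in 11 lists, were matched by name. Named regions were the best-scoring members of all, of each arm and of 3 overlap patterns, with the densest 50 kb intervals and the longest runs. Members, lists and rules were chosen with earlier results of these data known. With 1 list per tissue no test and no fit was made. Alternatives were other merging rules, peak widths, list lengths and score limits.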

Additional observations from a re-analysis of the deposited data

Results flagged for a closer look

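Pharate haltere-only regions had a haltere disc peak more often than a leg disc peak, by 3.70 percentage points, while pharate leg-only regions had one less often, with a difference of -1.29 points. The classes thus differed by 4.99 points, and with 1 list per tissue this difference was not tested. Wing-only regions also had haltere disc peaks more often than leg or wing disc peaks, in 17.7% against 15.7% and 15.6%. With equal pharate lists the haltere and leg disc shares were 24.7% and 24.0% for haltere-only and 23.7% and 20.5% for wing-only regions. The lead in haltere-only regions turned to -4.17 points in the better-scoring 50% of each list and -0.86 with the better 50% of haltere peaks alone. With the other lists cut to equal length it was 3.77 points.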

How the results depend on the processing

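The number of haltere-only regions was 6164 among the better-scoring 50% of each pharate list, 5482 with equal lists and 2429 when only haltere peaks were reduced to the better 50%. Between 9717 and 14509 regions were found with other merging rules or widths. The 6164 include haltere peaks that overlapped a weaker leg or wing peak left out of the reduced lists. The better-scoring 50% of each list gave haltere, leg and wing disc shares of 36.4%, 40.6% and 27.7%, a median score of 22.5, 17.1% on X and a longest run of 13. Equal lists gave haltere and wing disc shares of 24.7% and 15.8%, 17.6% on X, a longest run of 13 and at most 13 members in an interval. The better 50% of haltere peaks alone gave disc shares of 24.0%, 24.9% and 16.8%, a median score of 20.6, 16.6% on X, a longest run of 8 and at most 10 in an interval. Central widths of 200 bp gave disc shares of 20.6%, 19.0% and 12.5% and, by construction, a median width of 200 bp. Other lists cut to 9975 peaks gave 12.3%, 8.49% and 8.03%, an overlap of 100 bp gave 25.6%, 22.3% and 13.6%, and joining gaps up to 200 bp gave 26.4% for the haltere disc. Intervals of 20 and 100 kb held at most 12 and 35 members. The lead of the haltere disc over the leg disc, 3.70 points, was 0.69 with equal pharate lists and 1.64 at central widths. It turned to -4.17 points in the better-scoring 50% of each list and -0.86 with the better 50% of haltere peaks alone. The lead was 3.77 with other lists cut to 9975 peaks and 3.64 with 100 bp shared to merge. With gaps up to 200 bp joined it was 3.23, and with an overlap of 100 bp 3.25. With both the pharate and the other lists at equal length, 13.3% of members had a haltere disc peak and 10.8% a leg disc peak. This comparison of settings was added after the values were seen, and the cause was not tested. Each list is 1 file, so no replicate could be left out. No paired analysis was possible because each tissue has 1 list. The unknown read depth limits what the list lengths show.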
